A study of Mus musculus with 4 samples.

Results

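Foxp3-positive T cells were studied in the spleens of mice that carried a GFP-marked B-cell lymphoma. They were the cell barcodes with at least 1 unique molecular identifier (UMI, a tag that counts single captured molecules) of Foxp3, at least 1 UMI of the CD3 chains Cd3e, Cd3d and Cd3g together, at most 2 UMIs of the B-cell receptor chains Cd79a and Cd79b together, and under 10% mitochondrial UMIs. The rule found 250 such barcodes among 33120 barcodes, 168 of 14991 in the pBIC10 library and 82 of 18129 in the pBIC library. Of the barcodes with any Foxp3 UMI, it left out 56 of 224 in pBIC10 and 35 of 117 in pBIC, because 31 and 18 lacked CD3 transcripts, 34 and 29 exceeded the Cd79 limit, and 1 and 2 exceeded the mitochondrial limit, with some failing more than 1 criterion. They were set against the 5841 Foxp3-negative T barcodes of pBIC10 and the 10794 of pBIC, which met the same criteria with 0 Foxp3 UMIs. The cells were chosen by their Foxp3, CD3, Cd79 and mitochondrial UMIs, so the levels of these genes are a description.

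The series addresses how interleukin-10 made by lymphoma B cells shapes the surroundings of a diffuse large B-cell lymphoma. It holds 1 female pBIC10 mouse and 1 female pBIC mouse. How Il10 is changed in pBIC10 mice is not given in the labels and was left unassumed, and strain and age are not given either. Sorted live cells of each spleen had been remixed to 20% GFP-positive lymphoma cells and 80% GFP-negative cells before droplet encapsulation, so shares of all cells were set by the sort, while shares within T cells were not set by that mix. Each mouse gave 1 gene expression library and 1 T-cell receptor (TCR) library. The gene expression libraries held 147884282 UMIs in pBIC10 and 166941618 in pBIC, with medians of 5458 and 6235 UMIs per barcode. A total of 712 barcode sequences occurred in both libraries, including 6 of the pBIC10 and 4 of the pBIC Foxp3-positive barcodes, and no barcode sequence was Foxp3-positive in both. With 1 mouse per genotype there is no replicate error and no test, and a difference between the libraries cannot be told apart from a difference between 2 animals or 2 library preparations. Intervals are exact 95% intervals that cover counting error only, and "2-fold higher" or "lower" states the size of a ratio.

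Foxp3 is the transcription factor that defines regulatory T cells (Tregs), T cells that restrain other immune cells. Most Tregs belong to the CD4 lineage. They bear the high-affinity interleukin-2 receptor chain Il2ra (CD25), the inhibitory receptor Ctla4, and the Helios factor Ikzf2, and they can suppress through interleukin-10, TGF-beta and removal of co-stimulatory ligands from antigen-presenting cells. CD8 T cells that express Foxp3 are also known and are usually scarce. Foxp3 transcripts are low in abundance, so many Tregs are expected to lack a Foxp3 UMI in droplet data.

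The TCR library adds a measure that the choice by Foxp3 did not use, since T cells that descend from 1 clone share their TCR. The sequences below are the CDR3 loops, the part of each chain that meets antigen, of the 3 pBIC10 clonotypes with at least 3 T barcodes in which every T barcode was Foxp3-positive, and of the most expanded clonotype in each mouse that held more than 1 Foxp3-positive barcode. They are nucleotides from the deposited contig tables, 5′ to 3′, with the loop in capitals and the codons at its ends in lower case. TRB chains lie on chromosome 6 and TRA chains on chromosome 14.
pBIC10 clonotype 71 TRB (TRBV31, TRBJ1-1): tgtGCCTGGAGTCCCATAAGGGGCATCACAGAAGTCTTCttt
pBIC10 clonotype 71 TRA (TRAV16N, TRAJ47): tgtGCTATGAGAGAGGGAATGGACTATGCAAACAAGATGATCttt
pBIC10 clonotype 63 TRB (TRBV3, TRBJ2-3): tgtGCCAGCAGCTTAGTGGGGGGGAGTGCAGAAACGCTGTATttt
pBIC10 clonotype 63 TRA (TRAV9-4, TRAJ44): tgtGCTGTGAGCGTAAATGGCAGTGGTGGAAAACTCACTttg
pBIC10 clonotype 238 TRB (TRBV19, TRBJ2-4): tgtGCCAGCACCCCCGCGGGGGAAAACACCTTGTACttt
pBIC10 clonotype 238 TRA (TRAV13-2, TRAJ23): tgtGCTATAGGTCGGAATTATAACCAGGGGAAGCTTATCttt
pBIC10 clonotype 1 TRB (TRBV31, TRBJ1-6): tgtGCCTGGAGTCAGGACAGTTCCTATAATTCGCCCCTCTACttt
pBIC clonotype 2 TRB (TRBV12-1, TRBJ2-1): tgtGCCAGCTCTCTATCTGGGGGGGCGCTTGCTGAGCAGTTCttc
The loops of the 3 Foxp3-positive clonotypes use different V and J segments in their TRB chains. With the codons at both ends, these TRB sequences are 42, 45 and 39 bases long for clonotypes 71, 63 and 238. None of the TRB sequences of Foxp3-positive barcodes was found in Foxp3-positive barcodes of the other mouse.

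Foxp3-positive barcodes made up a larger share of T barcodes in pBIC10 than in pBIC. They were 168 of 6009 T barcodes, 2.80% (2.39 to 3.24), in pBIC10 and 82 of 10876, 0.754% (0.600 to 0.935), in pBIC. Because a barcode with more UMIs has more chances to show a Foxp3 molecule, each barcode was also thinned to 2000 UMIs, and shallower ones were left out. The criteria for T barcodes were then read from the thinned UMIs. At this depth the share was 1.69% (80 of 4723; 1.35 to 2.10) in pBIC10 and 0.365% (35 of 9583; 0.255 to 0.508) in pBIC. The intervals of the libraries did not overlap at either depth.

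The background was read from B-lineage barcodes without CD3, cells that should lack Foxp3. After thinning, 1 of 640 in pBIC10 (0.156%; 0.00396 to 0.867) and 2 of 1404 in pBIC (0.142%; 0.0173 to 0.514) had a Foxp3 UMI, and 0 of 682 pBIC10 and 0 of 124 pBIC neutrophil barcodes did, which allows shares of up to 0.539% and 2.93%. Small populations gave wider limits: 1 of 194 pBIC10 erythroid barcodes (0.515%; 0.013 to 2.84) and 1 of 95 pBIC macrophage barcodes (1.05%; 0.0266 to 5.73) had a Foxp3 UMI, against 0 of 383 pBIC erythroid and 1 of 720 pBIC10 macrophage barcodes. Before thinning, the B-lineage shares were 1.24% (8 of 644) at a median of 25575 UMIs in pBIC10 and 0.499% (7 of 1404) at a median of 14660.5 in pBIC. Among T barcodes with Cd4 UMIs and no Cd8 UMI, called Cd4-only, the thinned share was 8.29% (18 of 217; 4.99 to 12.8) in pBIC10 and 1.77% (13 of 735; 0.945 to 3.01) in pBIC, above the B-lineage share of its library in both, with intervals that did not overlap. Among barcodes with Cd8a or Cd8b1 UMIs and no Cd4 UMI, called Cd8-only, it was 0.872% (27 of 3095; 0.576 to 1.27) in pBIC10 and 0.0761% (5 of 6567; 0.0247 to 0.178) in pBIC. The pBIC Cd8-only share did not exceed the B-lineage share, so at this depth, with 5 barcodes, it cannot be told apart from background. The 7 pBIC Cd8-only barcodes with at least 2 Foxp3 UMIs at full depth are described further on. The pBIC10 Cd8-only share was above the B-lineage share, with intervals that overlapped each other and those of the erythroid barcodes. The pBIC Cd4-only interval also overlapped that of the 95 macrophage barcodes. In these thinned shares, Cd4-only and Cd8-only were read from the thinned UMIs, so a barcode whose Cd4 or Cd8 UMIs were not drawn changed kind. The B-lineage, neutrophil, erythroid and macrophage barcodes kept their full-depth choice, so the compared populations were not selected alike.

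**Figure D1:**
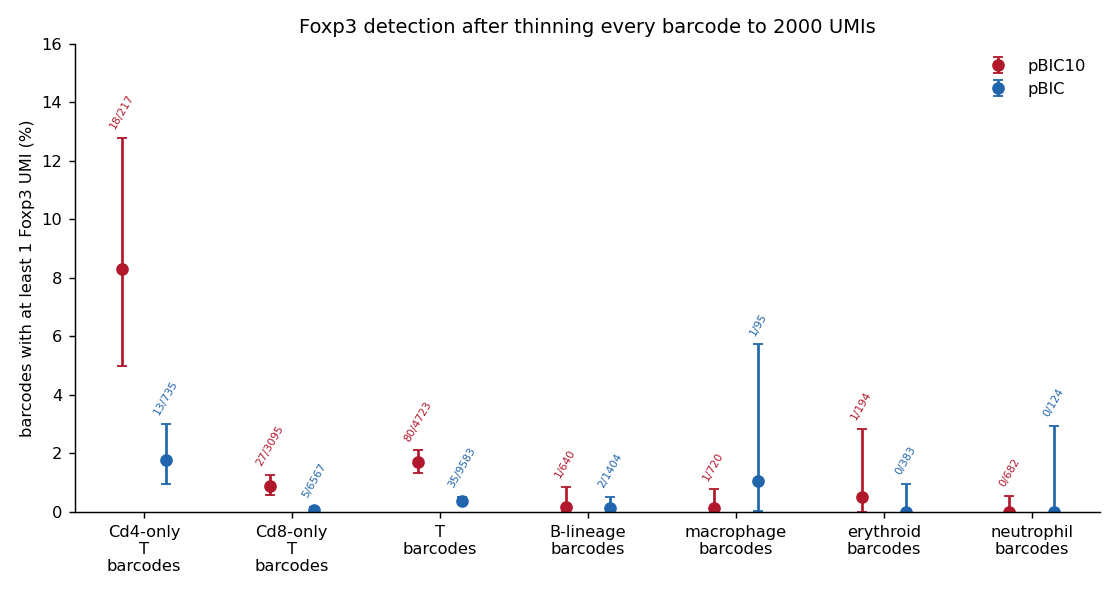
Share of barcodes with at least 1 Foxp3 UMI (percent, vertical axis) after thinning to 2000 UMIs, by cell population and library, with exact 95% intervals and the counts printed beside the points. The pBIC10 Cd4-only point stands highest at 8.29%, and the pBIC Cd8-only point at 0.0761% lies below the B-lineage point of the same library at 0.142%. T, Cd4-only and Cd8-only barcodes were chosen from the thinned UMIs, and the other populations at full depth.

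Foxp3-positive barcodes were split between the CD4 and CD8 lineages, and at full depth Cd8-only barcodes were the most numerous kind in both libraries. In pBIC10, 74 of the 168 were Cd8-only (44.0%; 36.4 to 51.9), 44 were Cd4-only (26.2%), 18 carried both and 32 carried neither. In pBIC, 30 of the 82 were Cd8-only (36.6%; 26.2 to 48.0), 17 were Cd4-only (20.7%), 15 carried both and 20 carried neither. Relative to Foxp3-negative T barcodes, the set was richer in Cd4-only barcodes, which were 5.02% of Foxp3-negative barcodes in pBIC10 and 10.0% in pBIC. With at least 2 Foxp3 UMIs required, the counts of Cd8-only and Cd4-only barcodes were 49 and 33 of 110 in pBIC10, and 7 and 12 of 39 in pBIC. After thinning to 2000 UMIs, 27 of 80 pBIC10 barcodes were Cd8-only, 18 Cd4-only and 33 neither, and 5 of 35 pBIC barcodes were Cd8-only, 13 Cd4-only and 16 neither. The order of the kinds thus differed after thinning and with the Foxp3 minimum, and in pBIC Cd4-only barcodes outnumbered Cd8-only ones under both alternatives. The thinned kinds were read from the thinned UMIs, so they need not hold the same barcodes as the full-depth kinds.

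Cd8b1, which encodes the beta chain of CD8, was also found outside T cells in pBIC10. B-lineage barcodes without CD3 had a Cd8b1 level of 303 CPM (the UMIs of a gene scaled to the summed UMIs of the set) in pBIC10, with a UMI in 577 of 644 barcodes, and 3.78 CPM in pBIC. Cd8a, the alpha chain, reached 12.7 CPM in those pBIC10 barcodes and 3.65 CPM in pBIC, so Cd8a separated the lineages better in pBIC10. The Foxp3-positive Cd8-only barcodes of pBIC10 had 423 Cd8a CPM, with a UMI in 66 of 74 and at least 3 UMIs in 50, against 452 CPM in Foxp3-negative Cd8-only barcodes. In pBIC the values were 703 CPM, with a UMI in 29 of 30, against 665 CPM. Barcodes that carried both Cd4 and a Cd8 gene in pBIC10 had Cd8b1 in all 18 and Cd8a in 5. With Cd8a alone as the criterion, at least 3 UMIs and no Cd4 UMI, Foxp3 was found in 50 of 2027 barcodes in pBIC10 (2.47%; 1.84 to 3.24) and in 23 of 5029 in pBIC (0.457%; 0.290 to 0.685). Those are full-depth shares; after thinning to 2000 UMIs they were 5 of 324 (1.54%; 0.503 to 3.56) and 1 of 1374 (0.0728%; 0.00184 to 0.405). This criterion was chosen after the Cd8b1 values were seen.

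The Cd8-only Foxp3-positive barcodes were T cells by their receptor. A TRB chain was present in 71 of 74 (95.9%) in pBIC10 and 26 of 30 (86.7%) in pBIC, and in 41 of 44 and 14 of 17 Cd4-only Foxp3-positive barcodes. Doublets, droplets with more than 1 cell, would add TRB chains: more than 1 TRB chain was listed for 4 of the 71 in pBIC10 (5.63%), against 4.10% of Foxp3-negative Cd8-only barcodes with a chain, and for 2 of the 26 in pBIC (7.69%; 0.946 to 25.1), against 3.85%. Scrublet, which scores barcodes against simulated doublets, marked 5 of all 168 Foxp3-positive barcodes of pBIC10 (2.98%), against 2.43% of its Foxp3-negative T barcodes. Of those 5, 4 were among the 74 Cd8-only barcodes, 1 carried both and 0 were Cd4-only. A share for Foxp3-negative Cd8-only barcodes alone was not computed, so these 4 have no comparison of their own. In pBIC Scrublet marked 0 of 82 Foxp3-positive barcodes and 0.806% of Foxp3-negative ones. The Cd8-only Foxp3-positive barcodes were also deeper than their Foxp3-negative counterparts, with medians of 13987.5 against 7101 UMIs in pBIC10 and 9999 against 6578.5 in pBIC. In Cd4-only barcodes the medians were 6107 against 5637 and 5838 against 5610.5. Levels in CPM are scaled to the total, and the part of depth in the Cd8-only gene ratios was not tested.

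Foxp3-positive barcodes carried the wider Treg gene set. Helios (Ikzf2) was at 172 CPM in Foxp3-positive and 21.3 CPM in Foxp3-negative barcodes of pBIC10 (log2 ratio 3.01; 2.84 to 3.18), and at 138 and 34.4 CPM in pBIC (2.0; 1.75 to 2.24). Ctla4 was at 470 and 113 CPM in pBIC10 (2.05; 1.96 to 2.15), and at 152 and 83.4 CPM in pBIC (0.87; 0.63 to 1.09). Il2ra was at 120 and 43.6 CPM in pBIC10 (1.46; 1.27 to 1.64), and at 72.2 and 8.49 CPM in pBIC (3.09; 2.73 to 3.43). All 3 were higher in Foxp3-positive barcodes of both mice, Ctla4 by less than 2-fold in pBIC.

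The Treg identity list held 16 genes besides Foxp3, and 13 had enough UMIs to be compared in each library. A gene was compared where the Foxp3-positive sum reached 10 UMIs or would have at the Foxp3-negative level. In pBIC10, 9 were at least 2-fold higher and 0 lower, where 2.76% of all 10109 genes compared were higher, and in pBIC, 8 were higher and 0 lower, where 4.06% of 8836 were. The median log2 ratio of the list was 1.46 in pBIC10 and 1.89 in pBIC, beside 0.06 and 0.09 over all genes. With every barcode thinned to 2000 UMIs the list medians were 1.91 and 2.83. Among its members were Tnfrsf4 (OX40), a co-stimulatory receptor, at 531 and 179 CPM in pBIC10 and 403 and 108 CPM in pBIC, and Izumo1r (folate receptor 4), at 43.6 and 5.95 CPM in pBIC10 and 123 and 29.6 CPM in pBIC. Lrrc32 (GARP), which docks latent TGF-beta on the Treg surface, was at 8.71 and 0.192 CPM in pBIC10 and 11.4 and 0.0229 CPM in pBIC. It was found in 16 of 168 and 7 of 82 Foxp3-positive barcodes, so most of them lacked an Lrrc32 UMI. Nrp1, often used with Helios to mark Tregs that arise in the thymus, was at 4.13 and 3.92 CPM in pBIC10 and 3.80 and 2.02 CPM in pBIC, and Gpr83 had 0 UMIs in the pBIC10 and 2 in the pBIC Foxp3-positive barcodes.

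Genes outside that list ranked beside it. The 10 genes that stood highest in both libraries were Foxp3, Flicr, Lrrc32, Itgae, Itgb8, Ccr8, Rragd, Rapsn, Nrn1 and Bmyc. Flicr is a non-coding RNA of the Foxp3 locus, and its reads and those of Foxp3 may not be fully separable. It was at 8.71 and 0.154 CPM in pBIC10 and 6.65 and 0.0688 CPM in pBIC. Itgb8, an integrin chain that releases active TGF-beta, was at 16.1 and 1.04 CPM in pBIC10 (log2 ratio 3.95) and 14.2 and 1.53 CPM in pBIC (3.22). Ccr8, a chemokine receptor of effector Tregs in tissues and tumours, was at 10.1 and 0.864 CPM in pBIC10 (3.55) and 9.50 and 0.872 CPM in pBIC (3.44). Rragd, a Rag GTPase of amino acid sensing, was at 24.8 and 2.19 CPM in pBIC10 (3.50) and 7.60 and 0.677 CPM in pBIC (3.49). Neuritin (Nrn1) was at 164 and 35.6 CPM in pBIC10 (2.20) and 69.3 and 4.97 CPM in pBIC (3.80).

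Other groups of Treg-related genes moved less. Over all genes compared, 2.76% were at least 2-fold higher and 4.84% lower in pBIC10, and 4.06% and 2.2% in pBIC. Of the effector Treg list, which holds factors and receptors of activated tissue Tregs, 5 of 15 genes compared were at least 2-fold higher in pBIC10 and 4 of 16 in pBIC, none lower, with medians of 0.65 and 0.42. Of the list of TNF-receptor and CD28 family co-stimulators, 3 of 9 were higher in pBIC10 and 2 of 10 in pBIC, with medians of 0.82 and 0.69. Of the suppressive mediators, Itgb8 alone was at least 2-fold higher among 12 genes in pBIC10 and 10 in pBIC, and the list medians were 0.02 and 0.13. Tgfb1, which encodes TGF-beta 1, was at 173 and 170 CPM in pBIC10 and 222 and 166 CPM in pBIC. The proliferation list had no member past 2-fold among 12 in either library, and the list of NF-kappaB genes had none among 10. Of the follicular regulatory T list, 0 of 6 genes were higher and 1 lower in pBIC10, and 1 of 7 was higher and none lower in pBIC.

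Part of the cytotoxic gene set of CD8 T cells was lower in Foxp3-positive barcodes, and granzyme B was not among the lower genes of pBIC10. Of the 18 genes of the cytotoxic CD8 list, 0 were at least 2-fold higher and 7 were lower in pBIC10, where 4.84% of all genes were lower, and 0 and 6 in pBIC, where 2.2% were. The medians of that list were -0.50 and -0.75. The chemokine Ccl5 was at 2365 and 8305 CPM in pBIC10 (log2 ratio -1.81) and 10177 and 27924 CPM in pBIC (-1.46). Granzyme B (Gzmb) was at 1257 and 798 CPM in pBIC10 (0.66) and 1662 and 2558 CPM in pBIC (-0.62), and perforin (Prf1) at 303 and 253 CPM (0.26) and 207 and 285 CPM (-0.46), all within 2-fold. Cxcr6, a chemokine receptor of tissue-resident T cells from the homing list, was at 6.88 and 55.2 CPM in pBIC10 (log2 ratio -3.0) and 27.5 and 119 CPM in pBIC (-2.11). Pdcd1, which encodes the inhibitory receptor PD-1, was at 56.9 and 111 CPM in pBIC10 and 111 and 201 CPM in pBIC, and Tox, a factor of exhausted T cells, at 51.8 and 101 CPM and at 73.1 and 149 CPM. The mix of lineages differs between the compared sets, so the same genes were read within each lineage.

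RNA of other cell types moved with these ratios. The 6 neutrophil markers summed to 1245 CPM in Foxp3-positive and 14386 CPM in Foxp3-negative T barcodes of pBIC10, and to 34.2 and 1917 CPM in pBIC. S100a8, S100a9 and Hp, which neutrophils express, stood among the lowest-ranked genes. The 10 macrophage markers summed to 1705 and 3283 CPM in pBIC10 and to 797 and 954 CPM in pBIC, the 8 B-lineage markers to 33.5 and 43.8 CPM and to 33.2 and 63.6 CPM, and the 6 NK markers to 299 and 706 CPM and to 281 and 288 CPM. Foxp3-negative barcodes with neither Cd4 nor Cd8 UMIs had a TRB chain in 7.45% of cases in pBIC10 and 19.2% in pBIC, against 53.1% (17 of 32) and 40.0% (8 of 20) of their Foxp3-positive counterparts. Among barcodes with a TRB chain, the cytotoxic CD8 list had 8 of 18 genes lower in pBIC10, where 2.23% of all genes were lower. The part of this RNA in the lower genes of the whole sets was otherwise not tested.

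In Cd4-only barcodes the comparison is between Foxp3-positive and Foxp3-negative cells of 1 lineage, 44 against 293 barcodes in pBIC10 and 17 against 1082 in pBIC. Of the Treg identity genes besides Foxp3, 8 of 11 were at least 2-fold higher and 0 lower in pBIC10, and 9 of 11 were higher and 0 lower in pBIC. The medians of that list were 1.23 and 1.75, beside 0.01 and 0.13 over all genes, and the shares of all genes that were higher were 4% of 5378 in pBIC10 and 8.68% of 2997 in pBIC. Ikzf2 was at 185 and 47.8 CPM in pBIC10 (log2 ratio 1.95; 1.51 to 2.39) and 207 and 37.2 CPM in pBIC (2.48; 1.89 to 3.02). It was found in 28 of 44 and 9 of 17 Foxp3-positive barcodes. Ctla4 was at 592 and 148 CPM in pBIC10 (2.0; 1.75 to 2.24) and 290 and 91.1 CPM in pBIC (1.67; 1.19 to 2.12).

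Il2ra in Cd4-only barcodes was at 101 and 38.9 CPM in pBIC10 (1.38; 0.79 to 1.93) and 277 and 9.33 CPM in pBIC (4.89; 4.30 to 5.46), where 40 UMIs came from 7 of 17 Foxp3-positive barcodes. Other co-stimulatory receptors were higher too. Tnfrsf18 (GITR) was at 510 and 239 CPM in pBIC10 (1.09) and 602 and 218 CPM in pBIC (1.47), and Tnfrsf9 (4-1BB) at 545 and 177 CPM (1.62) and 450 and 90.1 CPM (2.32). The integrin Itgae (CD103), which binds E-cadherin on epithelia, was at 65.4 and 1.56 CPM in pBIC10, with 24 UMIs in 5 of 44 Foxp3-positive barcodes, and at 89.9 and 0.246 CPM in pBIC, with 13 UMIs in 5 of 17. Itgae was thus concentrated in a few Foxp3-positive barcodes of each mouse. Klrg1, a receptor of terminally differentiated effector cells including effector Tregs, was at 284 and 74.3 CPM in pBIC10 (1.93) and 284 and 86.0 CPM in pBIC (1.72).

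Chemokines and some killing genes were lower in Foxp3-positive than in Foxp3-negative Cd4-only barcodes. Ccl5 was at 1723 and 7191 CPM in pBIC10 (log2 ratio -2.06) and 9558 and 25875 CPM in pBIC (-1.44). Ccl3 was at 19.1 and 458 CPM in pBIC10 (-4.59) and 27.7 and 547 CPM in pBIC (-4.30), and perforin (Prf1) at 76.3 and 187 CPM (-1.29) and 48.4 and 170 CPM (-1.81). Of the cytotoxic CD8 list, 7 of 13 genes were lower in each library, where 4.18% of all genes were lower in pBIC10 and 4.84% in pBIC. Granzyme A (Gzma) was the 1 higher member in pBIC, at 152 and 52.7 CPM (1.53), and Gzmb was at 494 and 347 CPM in pBIC10 (0.51) and 2407 and 1492 CPM in pBIC (0.69). Neutrophil markers summed to 998 and 3417 CPM and macrophage markers to 2468 and 3350 CPM in these pBIC10 sets, and to 34.6 and 260 CPM and to 1342 and 538 CPM in pBIC. Of the pBIC macrophage-marker UMIs, 188 of 194 fell in the 5 barcodes with 1 Foxp3 UMI.

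**Figure D2:**
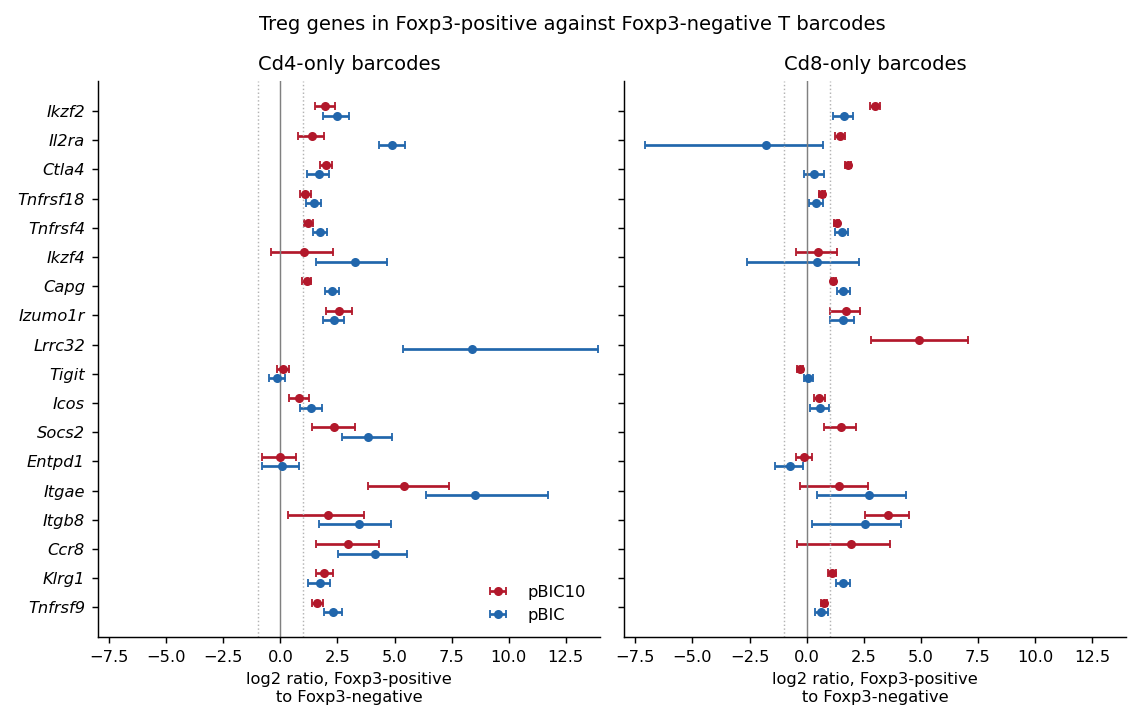
Log2 ratio of Foxp3-positive to Foxp3-negative barcodes (horizontal axis) for named Treg genes, in Cd4-only and Cd8-only panels, for pBIC10 and pBIC, with exact 95% counting intervals; dotted lines mark 2-fold, and a point is left out where either set has 0 UMIs. Ikzf2 lies right of the 2-fold line in both panels and both libraries, while Ctla4 in pBIC Cd8-only barcodes lies at 0.33, inside the lines.

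In Cd8-only barcodes of pBIC10, 74 Foxp3-positive against 3651 Foxp3-negative, the same Treg genes were higher. Of the Treg identity genes besides Foxp3, 7 of 12 were at least 2-fold higher and 0 lower, where 2.11% of all 8691 genes were higher, and the median was 1.24 beside 0.04 over all genes. Ikzf2 was at 170 and 21.4 CPM (log2 ratio 2.98; 2.76 to 3.21), with a UMI in 53 of 74 Foxp3-positive barcodes. Ctla4 was at 470 and 134 CPM (1.81; 1.69 to 1.94) in 62 of 74, and Il2ra at 151 and 54.6 CPM (1.47; 1.25 to 1.68) in 51 of 74. Capg, an actin-capping protein high in Tregs, was at 732 and 326 CPM (1.17) in 70 of 74. Itgb8 was at 11.3 and 0.95 CPM (3.57) and Rragd at 18.5 and 2.32 CPM (2.99).

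Treg identity genes were also higher in each narrower choice of pBIC10 Cd8-only barcodes, all chosen after the values were seen. These choices overlap in their barcodes and are not independent. The share of all genes past 2-fold is not given for these smaller sets, and the share of the whole set need not apply to them. Without clonotypes 71 and 63, the 63 remaining barcodes had 7 of 12 genes higher with a median of 1.11 and Ikzf2 at 160 CPM. Without barcodes that carried more than 1 TRB chain or a Scrublet call, 66 barcodes had 7 of 11 higher with a median of 1.38. With at least 3 Cd8a UMIs, 50 barcodes had 7 of 11 higher with a median of 1.09, Ikzf2 at a log2 ratio of 2.84 and Ctla4 at 1.59. With at least 3 Cd8a and 2 Foxp3 UMIs, 32 barcodes had 5 of 9 higher with a median of 1.31. Neutrophil markers summed to 171 CPM in the 74 barcodes and 4868 CPM in their Foxp3-negative counterparts, macrophage markers to 1417 and 1582 CPM, B-lineage markers to 36.2 and 37.8 CPM and NK markers to 194 and 306 CPM.

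In pBIC the 30 Cd8-only Foxp3-positive barcodes showed less of this programme, and 23 of them had a single Foxp3 UMI. Of the Treg identity genes, 4 of 9 were at least 2-fold higher and 0 lower, where 2.4% of all 5870 genes were higher, with a median of 0.57. Ikzf2 was at 111 and 36.3 CPM (log2 ratio 1.61; 1.15 to 2.04), Ctla4 at 114 and 90.2 CPM (0.33; -0.12 to 0.76), and Il2ra had 1 UMI, 2.53 against 8.61 CPM. One barcode held 51.1% of these Ctla4 UMIs. In the 7 barcodes with at least 2 Foxp3 UMIs, 5 of 7 genes were higher with a median of 1.81. The log2 ratio there was 2.63 for Ikzf2 and 1.81 for Ctla4. The barcode with most of the Ctla4 UMIs was among these 7, so the Ctla4 ratio, which is also the list median, rests mainly on it. The share of all genes past 2-fold is not given for this small set. Xcl1, a chemokine of CD8 T cells that draws cross-presenting dendritic cells, was at 354 and 42.2 CPM in pBIC (3.07; 9 of 30 barcodes), and at 8.84 and 74.7 CPM in pBIC10 (-3.08).

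Lower in Cd8-only Foxp3-positive barcodes of pBIC10 were some effector genes and not others. Gzma was at 8.84 and 81.7 CPM (log2 ratio -3.21), Ccl5 at 2661 and 10389 CPM (-1.96), the NK receptor chain Klrd1 (CD94) at 13.7 and 93.7 CPM (-2.78) and interferon gamma (Ifng) at 46.6 and 149 CPM (-1.67). Pdcd1 was at 54.7 and 136 CPM (-1.32), Tox at 41.8 and 121 CPM (-1.53) and Cxcr6 at 5.63 and 67.7 CPM (-3.59). Gzmb went the other way, at 1947 and 1022 CPM (0.93; 0.87 to 0.99), with a UMI in 69 of 74 Foxp3-positive barcodes, and Prf1 was at 457 and 312 CPM (0.55). Without clonotypes 71 and 63, Gzmb was at 1648 CPM (0.69) and Prf1 at 397 CPM (0.35). In the other narrower choices, and with at least 2 Foxp3 UMIs, the Gzmb ratio lay from 0.92 to 1.32. In all, 5 of 17 genes of the cytotoxic CD8 list were lower and 0 higher in pBIC10, where 3.44% of all genes were lower, and 3 of 18 were lower in pBIC, where 2.52% were. In pBIC Gzma was at 20.2 and 322 CPM (-3.99) and Gzmb at 1724 and 2939 CPM (-0.77).

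The Treg genes were read at each number of Foxp3 UMIs, at the edge of the rule and beyond it, as a description. In pBIC10 Cd8-only barcodes with 0, 1 and at least 2 Foxp3 UMIs, Ikzf2 was at 21.4, 76.4 and 217 CPM, and 13.9%, 40.0% and 87.8% of barcodes had an Ikzf2 UMI. Ctla4 was at 134, 131 and 643 CPM and Il2ra at 54.6, 127 and 164 CPM. Ctla4 at 1 Foxp3 UMI was therefore at the level of barcodes without Foxp3, while Ikzf2 was already above it. In pBIC Cd8-only barcodes Ikzf2 was at 36.3, 73.9 and 224 CPM and Ctla4 at 90.2, 47.1 and 316 CPM, the last from 7 barcodes. Most of the Ctla4 UMIs of those 7 came from 1 barcode. In Cd4-only barcodes Ikzf2 was at 47.8, 72.8 and 234 CPM in pBIC10 and 37.2, 118 and 235 CPM in pBIC, and Tnfrsf4 at 327, 428 and 911 CPM and 216, 561 and 777 CPM. Barcodes with at least 2 Foxp3 UMIs stood above the others for Ikzf2 and Tnfrsf4 in both lineages and both libraries.

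**Figure D3:**
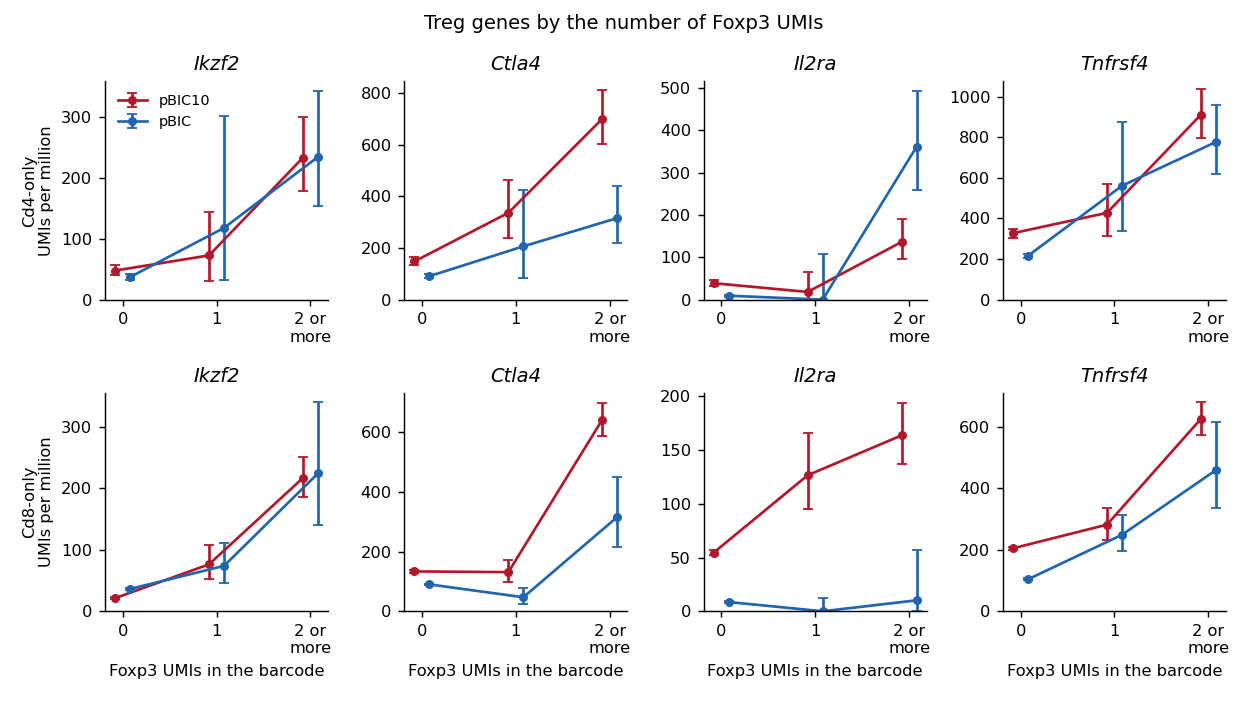
CPM of Ikzf2, Ctla4, Il2ra and Tnfrsf4 (vertical axes) in barcodes with 0, 1 and at least 2 Foxp3 UMIs (horizontal axes), Cd4-only in the top row and Cd8-only in the bottom row, for both libraries, with exact 95% Poisson intervals. Ikzf2 reaches 217 CPM in pBIC10 Cd8-only barcodes with at least 2 Foxp3 UMIs and 234 CPM in the Cd4-only ones.

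The Treg genes also occurred together in single barcodes. Ikzf2, Il2ra and Ctla4 were all found in 58 of 168 Foxp3-positive barcodes of pBIC10 (34.5%; 27.4 to 42.2) and in 131 of 5841 Foxp3-negative ones (2.24%). In Cd8-only barcodes of pBIC10 the counts were 40 of 74 (54.1%) and 110 of 3651 (3.01%), and in Cd4-only barcodes 10 of 44 (22.7%) and 11 of 293 (3.75%). None of the 3 genes was found in 15 of 168 Foxp3-positive barcodes (8.93%), against 55.2% of Foxp3-negative ones. In pBIC all 3 occurred in 11 of 82 (13.4%) and 67 of 10794 (0.621%). After thinning to 2000 UMIs the pBIC10 shares were 6 of 80 (7.50%) and 9 of 4643 (0.194%). Thinned Cd8-only barcodes gave 1 of 27 Foxp3-positive (3.70%) and 2 of 3068 Foxp3-negative ones (0.0652%), and Cd4-only barcodes 1 of 18 (5.56%) and 1 of 199 (0.503%). The shares thus depend on depth, and the higher full-depth share in Cd8-only than in Cd4-only Foxp3-positive barcodes was not seen at equal depth, where each rested on 1 barcode. In pBIC the thinned counts were 1 of 35 and 3 of 9548.

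Within pBIC10, Cd8-only and Cd4-only Foxp3-positive barcodes had levels of Ikzf2, Capg, Il2ra and Ctla4 within 2-fold of each other. Ikzf2 was at 170 CPM in the 74 Cd8-only and 185 CPM in the 44 Cd4-only barcodes (log2 ratio -0.13; -0.53 to 0.29), and Capg at 732 and 777 CPM (-0.09; -0.28 to 0.11). The intervals included no difference and reached -0.53 for Ikzf2. Il2ra was at 151 and 101 CPM (0.58; 0.07 to 1.13) and Ctla4 at 470 and 592 CPM (-0.33; -0.56 to -0.10). Of the Treg identity genes, 0 of 11 were at least 2-fold higher and 2 lower in Cd8-only barcodes, where 5.21% of 5355 genes were higher and 6.35% lower. The list median was -0.33 beside -0.02 over all genes. The lower ones included Izumo1r, at 17.7 and 136 CPM (-2.95; -3.74 to -2.20).

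Homing and effector Treg genes set the lineages apart. Of the homing list, 0 of 17 genes were higher and 10 lower in Cd8-only Foxp3-positive barcodes of pBIC10, with a median of -1.12, and of the effector Treg list 0 of 13 were higher and 5 lower, with a median of -0.68, where 6.35% of all genes compared were lower. In Foxp3-negative barcodes 5 of 19 and 1 of 14 genes of these lists were lower, where 331 of all 10306 genes compared were lower. Itgae was at 4.02 and 65.4 CPM (log2 ratio -4.02; -5.77 to -2.61), Ccr8 at 2.41 and 29.99 CPM (-3.64, from 3 UMIs) and Ccr6, a receptor for CCL20, at 0.804 and 32.7 CPM (-5.35, from 1 UMI). Gata3, a T helper 2 factor also used by tissue Tregs, was at 8.84 and 29.99 CPM (-1.76). Some of these differences also separated the lineages without Foxp3: in Foxp3-negative barcodes the log2 ratio of Cd8-only to Cd4-only was -3.94 for Ccr6, -2.62 for Ccr8, -2.08 for Izumo1r, -0.65 for Gata3 and -0.02 for Itgae, the last from 4 Cd4-only UMIs.

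Several killing and cycling genes were higher in the Cd8-only Foxp3-positive barcodes. Gzmb was at 1947 CPM in Cd8-only and 494 CPM in Cd4-only barcodes (log2 ratio 1.98; 1.76 to 2.21) and Prf1 at 457 and 76.3 CPM (2.58; 2.03 to 3.18). Ccl4 was at 914 and 38.2 CPM (4.58; 3.83 to 5.46) and Ccl3 at 277 and 19.1 CPM (3.86), with 69.2% of the Cd8-only Ccl3 UMIs in 1 barcode. In Foxp3-negative barcodes the corresponding log2 ratios were 1.56 for Gzmb, 0.74 for Prf1, 0.77 for Ccl4 and 0.51 for Ccl3. Of the cytotoxic CD8 list, which holds Cd8a and Cd8b1 that defined the split, 8 of 14 genes were at least 2-fold higher with those 2 included, where 5.21% of all genes compared were higher. Of the proliferation list 7 of 12 were higher with a median of 1.18. In Foxp3-negative barcodes 134 of all 10306 genes compared were higher, and 0 of 12 of the proliferation list, with a median of 0.21. At least 3 UMIs of that list were found in 44 of 74 Cd8-only (59.5%) and 14 of 44 Cd4-only (31.8%) Foxp3-positive barcodes of pBIC10, and in 44.1% and 32.8% of Foxp3-negative ones. In pBIC the Foxp3-positive shares were 16 of 30 (53.3%) and 9 of 17 (52.9%). This count rises with depth, which was higher in Cd8-only barcodes, and after thinning it was met by 3 of 27 Cd8-only (11.1%) and 1 of 18 Cd4-only (5.56%) barcodes of pBIC10, too few to order. This comparison between the lineages, and the rankings within them, were added after values were seen.

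**Figure D4:**
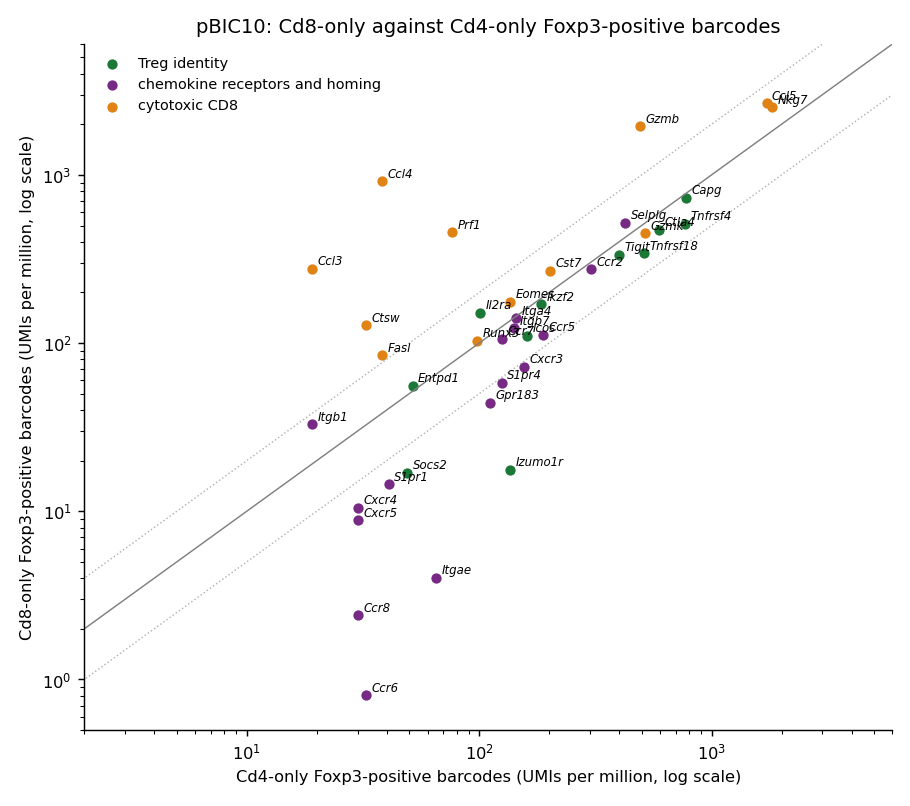
Level in Cd8-only (vertical axis) against Cd4-only (horizontal axis) Foxp3-positive barcodes of pBIC10, in CPM on log axes, for reported genes of the Treg identity, homing and cytotoxic lists, without Foxp3, Cd8a and Cd8b1, with a solid line at equal levels and dotted lines at 2-fold. Ikzf2 and Capg lie near the line of equality, Itgae and Izumo1r below the 2-fold band, and Gzmb, Prf1 and Ccl4 above it.

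Il10 was not raised in Foxp3-positive barcodes of either mouse. It was at 15.6 CPM in Foxp3-positive and 22.9 CPM in Foxp3-negative barcodes of pBIC10 (log2 ratio -0.56; -1.09 to -0.07), and at 19.9 and 39.0 CPM in pBIC (-0.97; -1.66 to -0.35). A UMI of Il10 was found in 15 of 168 (8.93%) and 8.8% of barcodes in pBIC10, and in 10 of 82 (12.2%) and 11.9% in pBIC. Thus the full-depth shares were nearly equal while the levels were lower. Foxp3-positive barcodes were deeper, with medians of 9170 against 5642 UMIs in pBIC10 and 8366 against 5907.5 in pBIC. After thinning, an Il10 UMI was found in 0 of 80 Foxp3-positive pBIC10 barcodes (0%; 0 to 4.51). The thinned share of Foxp3-negative pBIC10 barcodes, 193 of 4643 (4.16%), lay inside that interval. The pBIC ratio took the opposite sign after thinning, 0.76 (-0.87 to 1.99), where 3 of 35 Foxp3-positive barcodes had a UMI. In the pBIC10 Cd8-only barcodes Il10 was at 15.3 and 27.5 CPM (-0.85), with 52.6% of the Foxp3-positive UMIs in 1 barcode, and in the Cd4-only barcodes at 16.4 and 24.1 CPM, from 6 UMIs.

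The receptor and its signalling genes were also near the level of Foxp3-negative barcodes. Il10ra, the ligand-binding receptor chain, was at 177 and 186 CPM in pBIC10 (log2 ratio -0.07) and 158 and 170 CPM in pBIC (-0.11). Il10rb, a chain shared with other cytokine receptors, was at 36.7 and 46.1 CPM in pBIC10 (-0.33) and 60.8 and 80.5 CPM in pBIC (-0.41). Of the IL-10 axis list, 0 of 10 genes in pBIC10 and 0 of 9 in pBIC differed by 2-fold, with medians of -0.13 and -0.18. Foxp3-positive barcodes thus carried receptor transcripts for interleukin-10 in both mice.

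Most Foxp3-positive barcodes of pBIC10 with a TCR stood alone in their clonotype, and a clonotype of 1 T barcode cannot hold a Foxp3-negative member. In pBIC10, 145 Foxp3-positive barcodes had a TRB chain and fell into 124 clonotypes, as the authors define them. Of these barcodes, 28 (19.3%; 13.2 to 26.7) shared a clonotype with a Foxp3-negative T barcode, 34 (23.4%; 16.8 to 31.2) with another Foxp3-positive barcode, and 89 (61.4%) stood alone. In pBIC, 60 barcodes fell into 55 clonotypes, with 26 (43.3%; 30.6 to 56.8) sharing with a Foxp3-negative barcode, 10 (16.7%; 8.29 to 28.5) with another Foxp3-positive one, and 26 alone. In pBIC10, 10 clonotypes had at least 2 Foxp3-positive and no Foxp3-negative barcode and held 28 barcodes, as many as shared a clonotype with a Foxp3-negative barcode. In pBIC 4 such clonotypes held 8, against 26 that shared.

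Sharing with Foxp3-negative barcodes was commoner among barcodes with 1 Foxp3 UMI. In pBIC10 it was found for 11 of 100 barcodes (11%) with at least 2 UMIs and 17 of 45 (37.8%) with 1, and in pBIC for 5 of 31 (16.1%) and 21 of 29 (72.4%). Among Cd8-only barcodes of pBIC10 the counts were 7 of 47 (14.9%) and 11 of 24 (45.8%). Of the barcodes with 1 Foxp3 UMI, 23 of 45 in pBIC10 and 5 of 29 in pBIC stood alone, and of those with at least 2, 66 of 100 and 21 of 31 did. In Cd8-only barcodes as a whole sharing was found for 18 of 71 (25.4%) in pBIC10 and 18 of 26 (69.2%) in pBIC, and in Cd4-only barcodes for 4 of 41 (9.76%) and 4 of 14 (28.6%).

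The clonotypes with the largest number of Foxp3-positive barcodes were Cd8-only. In pBIC10 clonotype 71, all 6 T barcodes were Foxp3-positive, with 1, 6, 3, 9, 2 and 4 Foxp3 UMIs, and 3, 2, 9, 9, 1 and 17 Cd8a UMIs in the same order, and none had a Cd4 UMI. A further barcode of that clonotype also carried 4 Foxp3 UMIs and was left out by the rule with 3 Cd79 UMIs. In clonotype 63, all 5 were Foxp3-positive, with 4, 3, 5, 3 and 12 Foxp3 UMIs and 11, 14, 1, 7 and 24 Cd8a UMIs, again with no Cd4 UMI. The authors' table lists 8 barcodes of clonotype 63, and all 8 had a Foxp3 UMI, with 3 outside the rule. Both clonotypes had more Ikzf2 and Il2ra than the Foxp3-negative Cd8-only barcodes of pBIC10. Ikzf2 was at 205 CPM in clonotype 71 and 225 CPM in clonotype 63, against 21.4 CPM. Il2ra was at 144 and 142 CPM, against 54.6 CPM. Ctla4 was at 934 and 158 CPM, against 134 CPM, which lies inside the clonotype 63 interval of 95.3 to 247. Gzmb was at 3521 and 3234 CPM. In clonotype 71, 1 barcode held 44 of the 91 Ctla4 UMIs, and 1 held 217 of the 343 Gzmb UMIs.

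Clonotype 238 was the only other one with at least 3 T barcodes all of which were Foxp3-positive. Its 3 barcodes had 2, 3 and 4 Foxp3 UMIs, each with a Cd4 UMI and none with a Cd8a UMI. Cd8b1 had 5 UMIs in 2 of them, so 1 barcode was Cd4-only and 2 carried both. None had an Ikzf2 UMI, and Ctla4 was at 674 CPM and Tnfrsf4 at 973 CPM. Lrrc32 and Itgae were at 0 UMIs in every barcode of the 3 clonotypes. Clonotypes 71, 63 and 238 held 97428, 119990 and 26726 UMIs, so 0 UMIs allows levels of up to 37.9, 30.7 and 138 CPM. In all, of 249 pBIC10 clonotypes with at least 3 T barcodes, 230 had no Foxp3-positive barcode, 14 had under 50%, 2 had 50% to under 100%, and 3 had 100%. Of 452 such pBIC clonotypes, 430 had none, 22 had under 50% and 0 had more.

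Large clonotypes had few Foxp3-positive members, with intervals that overlapped those of all Cd8-only barcodes with a TRB chain. In pBIC10 the 15 clonotypes with at least 20 T barcodes held 6 Foxp3-positive of 587 barcodes (1.02%; 0.376 to 2.21), and in pBIC 66 such clonotypes held 12 of 3237 (0.371%; 0.192 to 0.647). Among all T barcodes with a TRB chain the shares were 4.23% in pBIC10 and 0.808% in pBIC. Among the Cd8-only ones they were 2.45% (1.92 to 3.08) and 0.445% (0.291 to 0.651). Clonotype 1 of pBIC10 had 2 Foxp3-positive and 108 Foxp3-negative barcodes. Clonotype 2 of pBIC had 2 Foxp3-positive barcodes, each with 1 Foxp3 UMI, and 223 Foxp3-negative ones. The TRB variable segments most used by Foxp3-positive pBIC10 barcodes were TRBV3 and TRBV31. TRBV3 was used by 19 of 145 Foxp3-positive (13.1%; 8.08 to 19.7) and 8.28% of Foxp3-negative barcodes, and TRBV31 by 17 of 145 (11.7%; 6.98 to 18.1) and 7.98%. Both intervals included the Foxp3-negative share. Clonotype 63 gave 5 of the TRBV3 barcodes and clonotype 71 gave 6 of the TRBV31 ones, and barcodes of a clonotype are not independent.

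**Figure D5:**
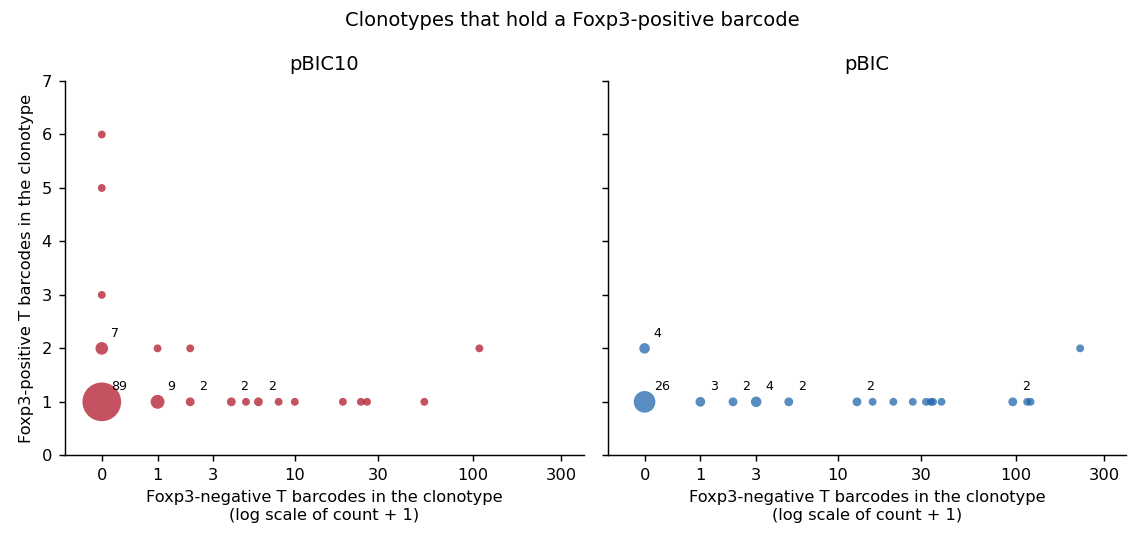
Foxp3-positive (vertical axis) against Foxp3-negative (horizontal axis) T barcodes per clonotype, for clonotypes with at least 1 Foxp3-positive barcode in each library; point size and the printed number give the count of clonotypes at that position. The pBIC10 clonotypes with 6 and 5 Foxp3-positive barcodes have 0 Foxp3-negative barcodes, while no pBIC clonotype has more than 2 Foxp3-positive barcodes.

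Between the mice, Foxp3-positive barcodes of pBIC10 had more Ctla4, Tff1, Penk and Cd70 and less Cd7, Xcl1 and Mki67 than those of pBIC, and all of these but Ctla4 and Xcl1 differed by over 2-fold in Foxp3-negative barcodes too. Of 8930 genes compared, 378 (4.23%) were at least 2-fold higher and 1119 (12.5%) lower in pBIC10 than in pBIC. With median-of-ratios size factors the counts were 571 higher and 688 lower, so the imbalance depends on the scaling. The median of all genes was -0.24 on the log2 scale, and the counts and ratios given here were not shifted by it. In Foxp3-negative barcodes 14.8% of 15160 genes were higher and 10.3% lower. Neutrophil RNA moved with this comparison, 1245 CPM in pBIC10 and 34.2 CPM in pBIC, as did macrophage RNA, 1705 and 797 CPM. Ngp, S100a8, Retnlg, Lcn2, S100a9 and Camp, all neutrophil genes, were among the 10 highest-ranked genes.

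Of the Treg identity genes, 2 of 13 were at least 2-fold higher and 1 lower in pBIC10 Foxp3-positive barcodes, with a median of 0.23. Ctla4 was at 470 CPM in pBIC10 and 152 CPM in pBIC (log2 ratio 1.63; 1.39 to 1.88), and in Foxp3-negative barcodes at 113 and 83.4 CPM (0.44). Il2ra was at 120 and 72.2 CPM (0.73; 0.36 to 1.12), and in Foxp3-negative barcodes at 43.6 and 8.49 CPM (2.36). The Il2ra difference ran in opposite directions in the lineages, 101 and 277 CPM in Cd4-only barcodes (-1.46; -2.14 to -0.77), and 151 and 2.53 CPM in Cd8-only ones. The Foxp3 level itself was 238 CPM in pBIC10 and 296 CPM in pBIC, and in Cd4-only barcodes 379 and 795 CPM.

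Some genes outside the Treg lists stood far apart between the mice. Tff1, a trefoil factor, was at 301 CPM in pBIC10 and 16.1 CPM in pBIC Foxp3-positive barcodes (log2 ratio 4.22; 3.53 to 5.01), and at 237 and 26.9 CPM in Foxp3-negative ones. Penk, the enkephalin precursor, was at 754 and 229 CPM (1.72), and at 482 and 138 CPM in Foxp3-negative barcodes. Both were at 2.35 CPM or less in B-lineage barcodes of either mouse. Cd70, which binds CD27, was at 83.01 and 1.9 CPM (5.45; 3.58 to 8.51), at 80.7 and 1.22 CPM in Foxp3-negative barcodes, and at 128 and 1.17 CPM in B-lineage barcodes. Cd7, a T-cell surface protein, was at 34.9 and 263 CPM (-2.92), and at 16.2 and 454 CPM in Foxp3-negative barcodes. Xcl1 was at 7.34 and 153 CPM (-4.38; -5.22 to -3.64) in Foxp3-positive barcodes but at 57.2 and 46.1 CPM (0.31) in Foxp3-negative ones. Of the proliferation list, 0 of 12 genes were higher and 6 lower in pBIC10 Foxp3-positive barcodes, with a median of -0.96, and 0 and 5 in Foxp3-negative ones, with a median of -0.59. Mki67 was at 200 and 486 CPM in Foxp3-positive barcodes (-1.28).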

How the data were processed

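The authors deposited UMI counts per gene and barcode for 32285 features, and TCR tables with read and UMI counts per contig and, per clonotype, its count and fraction of cells (the fraction was not used). Per the submitters' processing notes the counts were made with Cell Ranger 3.0.1 on GRCm39, whereas version 5.0.1 stands in the matrix header, a difference that could not be settled. The deposited barcodes were called cells, with at least 657 UMIs in pBIC10 and 500 in pBIC.

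Counts were summed over the barcodes of a set and divided by the set total (CPM). No test was made with 1 library per genotype. Levels have exact Poisson intervals, shares Clopper-Pearson intervals and ratios conditional binomial intervals, all at 95%, and PCR and droplet effects are outside them. A gene entered a ratio where the Foxp3-positive sum reached 10 UMIs, or would at the Foxp3-negative level; between mice or lineages the smaller sum counted. A gene with 0 UMIs took a floor of 3 counts per set. Scrublet (scanpy 1.11.5, expected rate 0.08) was read at a fixed score of 0.33 on barcodes with at least 200 genes, because its automatic threshold marked no pBIC barcode; it marked 2.16% of pBIC10 and 1.99% of pBIC barcodes, which were kept. Thinning drew 2000 UMIs per barcode without replacement. Foxp3, the criteria for T barcodes and the Cd4 and Cd8 kinds were then read from the thinned UMIs, while non-T populations kept their full-depth choice. B-lineage barcodes had at least 10 Cd79 UMIs and no CD3 UMI.

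Named genes were Foxp3, Ikzf2, Il2ra, Ctla4, Cd4, Cd8a, Cd8b1, Il10, Il10ra and Il10rb, up to 4 members per direction of each of 26 lists (244 genes) with the largest ratio in both libraries, and 10 genes per direction ranked by the interval bound nearest to no difference, with UMIs in at least 5% of barcodes of the higher set. Left out were antigen receptor segments and mitochondrial, ribosomal, haemoglobin, predicted and sex-linked genes. Genes named within a lineage, by clonotype or between the mice beyond that rule were chosen after their values were seen. A few genes allowed by these rules are not reported here. The rule, its members and the lists were chosen with earlier results of these data known. The ratio and interval code was tested on simulated data. Python 3.11.15, numpy 2.4.6, scipy 1.17.1, pandas 2.3.3 and matplotlib 3.10.9 were used.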

Additional observations from a re-analysis of the deposited data

Results flagged for a closer look

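Gzmb, which encodes granzyme B, had opposite directions in the mice: the log2 ratio of Foxp3-positive to Foxp3-negative barcodes was 0.66 in pBIC10 and -0.62 in pBIC. Within lineages only the Cd8-only ratios were opposed, at 0.93 in pBIC10 and -0.77 in pBIC, while in Cd4-only barcodes Gzmb was higher in both mice. The macrophage gene Fcgr3 also had opposite directions in the whole sets, at -1.31 in pBIC10 and 0.68 in pBIC. In pBIC, 19 of 27 Fcgr3 UMIs of Foxp3-positive barcodes were in Cd4-only barcodes. With 1 library per genotype, these differences between the mice were not tested.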

How the results depend on the processing

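No paired analysis was possible because each genotype has 1 library, and for the same reason no replicate could be left out. Under the alternative settings, 138 values moved by less than their interval or by under 1.5 times for counts of genes, 45 moved by more and 1 changed sign; the causes were not tested unless the setting itself removes barcodes, UMIs or genes. The Foxp3-positive share of T barcodes in pBIC10 was 1.85% with at least 2 Foxp3 UMIs, 3.90% with at least 3 CD3 UMIs, 4.23% with a TRB chain required and 1.69% after thinning to 2000 UMIs. In pBIC it was 0.360% with at least 2 Foxp3 UMIs and 0.365% after thinning. The Cd8-only share of Foxp3-positive barcodes was 33.8% after thinning in pBIC10, and in pBIC 17.9% with at least 2 Foxp3 UMIs and 14.3% after thinning. The share with another Foxp3-positive barcode in the clonotype was 9.33% in pBIC10 and 6.90% in pBIC after thinning. The share with a Foxp3-negative barcode in the clonotype was 11% with at least 2 Foxp3 UMIs and 29.3% after thinning in pBIC10, and 16.1% and 27.6% in pBIC. Genes at least 2-fold higher in Foxp3-positive barcodes numbered 116 in pBIC10 and 105 in pBIC with entry at 30 UMIs, 1516 and 1816 with no filter, 446 in pBIC10 by the mean of per-cell CPM, and 160 in pBIC after thinning. Genes at least 2-fold lower numbered 236 in pBIC10 and 72 in pBIC with entry at 30 UMIs, 955 and 509 with no filter, 775 and 350 by the mean of per-cell CPM, 134 and 54 after thinning, and in pBIC10 279 with at least 3 CD3 UMIs and 215 with a TRB chain required. The Treg identity median of pBIC was 2.68 with at least 2 Foxp3 UMIs and 2.83 after thinning. The Il10 log2 ratio of pBIC, -0.97 as reported, was -0.17 by the mean of per-cell CPM, -0.19 with at least 2 Foxp3 UMIs, -2.78 without barcodes with a Cd79 UMI, and 0.76 after thinning, the change of sign. Between pBIC10 and pBIC Foxp3-positive barcodes, 571 genes were higher and 688 lower with median-of-ratios size factors, 147 and 527 with entry at 30 UMIs, 773 and 2270 with no filter, 65 and 228 after thinning, and 241 higher with at least 2 Foxp3 UMIs. Depth limits the rest: 58 of 168 Foxp3-positive barcodes in pBIC10 and 43 of 82 in pBIC had a single Foxp3 UMI, and some Foxp3-negative barcodes may be Tregs without a captured Foxp3 molecule.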
